A study of Homo sapiens with 12 samples.

Results

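The genes described here are 51 DNA repair and damage checkpoint genes, chosen by name to cover the main repair routes and the signalling that detects damage. Of these, 47 were measured among 11963 genes, each by its brightest probe set that names a single gene. No probe set used here named BRCA2, FANCA, PMS2 or RAD18. The arrays ask how expression differs in MDA-MB-231 cells when LSD2 is targeted by a stable shRNA or supplied by a stable vector. MDA-MB-231 is a long-established triple-negative line from a human breast cancer. LSD2, encoded by KDM1B, is a demethylase of histone H3. The 4 groups, with 3 arrays each, were cells carrying an LSD2 shRNA, cells carrying a scramble shRNA, cells carrying an LSD2/eGFP/Flag vector and cells carrying an eGFP/Flag vector. All were under G418 selection at 800 µg/ml, and the labels do not say whether a line was a clone or a pool. If the arrays of a group come from a single stable line, a difference between groups cannot be told apart from a difference between lines.

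Cells repair double-strand breaks by homologous recombination, which copies the sister chromatid and needs BRCA1 and its partners, or by non-homologous end joining, which ligates the ends held by the XRCC5 and XRCC6 proteins (Ku80 and Ku70). Excision pathways replace damaged bases, bulky lesions and mismatches, and the Fanconi anemia proteins open crosslinks between strands. The kinases ATM and ATR, with mediators such as MDC1 and TP53BP1, carry the damage signal to CHEK1 and CHEK2, which hold the cell cycle.

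The values are deposited RMA log2 intensities, and levels are not compared between the shRNA and the vector arrays, which appear to have been normalized separately. Their medians over all 22277 probe sets were 6.65 to 6.71 on the 6 shRNA arrays and 7.03 to 7.18 on the 6 vector arrays. The arrays labelled LSD2/eGFP/Flag stood apart from all others. Over genes they correlated with the eGFP/Flag arrays at r of 0.904 to 0.908, while LSD2 shRNA and scramble shRNA arrays correlated at 0.991 to 0.994, and arrays within a group at 0.996 to 0.998. Of 15 markers of MDA-MB-231, 14 were measured and all 14 fell on the LSD2/eGFP/Flag arrays, with a mean per array of 6.47 to 6.60, against 12.05 to 12.10 on the eGFP/Flag arrays. The mean of the same markers was 11.51 to 11.58 on the LSD2 shRNA arrays and 11.42 to 11.54 on the scramble shRNA arrays. CD44 averaged 3.99 on the LSD2/eGFP/Flag arrays and 12.41 on the eGFP/Flag arrays, while VIM stayed bright at 12.73 on the LSD2/eGFP/Flag arrays and 14.18 on the eGFP/Flag arrays. Of 12 neuronal markers 5 rose and 3 fell on the LSD2/eGFP/Flag arrays, with a mean per array of 7.29 to 7.38, against 5.79 to 5.91 on the eGFP/Flag arrays. The largest differences in that list were those of NEFM (6.74), TUBB2B (6.48), NEFL (3.25) and INA (3.08), and its median difference was 0.03. On the same arrays 2 of 12 luminal breast markers rose and 6 fell, of 12 fibroblast and endothelial markers 3 rose and 2 fell, and none of 11 measured blood cell markers was called (limma, 1 at an unadjusted p under 0.05). The marker levels thus go against the cell line label of the LSD2/eGFP/Flag arrays, and every result of the vector comparison rests on those arrays and has no value without them. Their part in the results was not tested. KDM1B was named by 0 probe sets, so neither the knockdown nor the overexpression was checked on the targeted gene.

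The promoters of 6 members are printed. MDC1 and CHEK2 had the largest rises on the LSD2/eGFP/Flag arrays, and ERCC2 fell in both comparisons. XRCC2, TOPBP1 and MSH3 are printed because they hold an E2F word yet differed in direction. All 6 were chosen after their values were seen, from genes with a single listed promoter. Each window is from RefSeq, build GRCh38.p14, runs 5′ to 3′ on the gene's own strand, and covers 250 bases before the transcription start and 50 bases after it. Capitals mark the letters of the motifs searched. In MDC1, CHEK2 and ERCC2 these are the CCAAT box (CCAAT, or ATTGG on the other strand) and, in MDC1 alone, the CHR element TTTGAA. In XRCC2, TOPBP1 and MSH3 they are the E2F words TTTGGCGC, TTTCCCGC, TTTGCCGC and TTTCGCGC or their reverse complements, which overlap each other in MSH3.
MDC1, chr6:30717232-30717531, minus strand: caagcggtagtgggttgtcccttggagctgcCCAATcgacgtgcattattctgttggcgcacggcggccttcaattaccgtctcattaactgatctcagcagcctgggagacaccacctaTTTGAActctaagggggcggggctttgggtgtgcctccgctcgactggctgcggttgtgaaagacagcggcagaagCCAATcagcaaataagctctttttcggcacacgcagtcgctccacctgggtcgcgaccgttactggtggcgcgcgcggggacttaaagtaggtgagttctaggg
CHEK2, chr22:28741771-28742070, minus strand: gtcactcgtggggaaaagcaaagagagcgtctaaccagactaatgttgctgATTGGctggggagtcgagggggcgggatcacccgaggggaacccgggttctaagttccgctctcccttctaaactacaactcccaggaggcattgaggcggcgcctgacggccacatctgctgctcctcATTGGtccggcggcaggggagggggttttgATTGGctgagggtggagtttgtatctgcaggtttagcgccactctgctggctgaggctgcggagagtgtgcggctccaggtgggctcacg
ERCC2, chr19:45370524-45370823, minus strand: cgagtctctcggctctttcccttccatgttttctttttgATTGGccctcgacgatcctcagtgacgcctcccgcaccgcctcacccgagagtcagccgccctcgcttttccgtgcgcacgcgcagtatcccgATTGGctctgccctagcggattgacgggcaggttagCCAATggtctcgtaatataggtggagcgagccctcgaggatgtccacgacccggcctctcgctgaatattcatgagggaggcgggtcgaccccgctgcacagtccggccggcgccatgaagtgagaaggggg
XRCC2, chr7:152676092-152676391, minus strand: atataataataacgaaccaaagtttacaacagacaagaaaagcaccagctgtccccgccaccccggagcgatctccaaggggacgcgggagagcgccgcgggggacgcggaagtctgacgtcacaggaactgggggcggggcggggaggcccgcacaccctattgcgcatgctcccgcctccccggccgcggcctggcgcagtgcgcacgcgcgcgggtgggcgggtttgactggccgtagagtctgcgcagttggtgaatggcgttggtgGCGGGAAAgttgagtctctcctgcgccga
TOPBP1, chr3:133661892-133662191, minus strand: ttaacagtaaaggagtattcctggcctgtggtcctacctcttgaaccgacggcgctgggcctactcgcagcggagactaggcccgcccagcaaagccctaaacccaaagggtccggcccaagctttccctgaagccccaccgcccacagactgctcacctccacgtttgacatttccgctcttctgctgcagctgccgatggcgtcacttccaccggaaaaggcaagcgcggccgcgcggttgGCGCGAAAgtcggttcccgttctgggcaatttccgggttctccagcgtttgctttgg
MSH3, chr5:80654402-80654701, plus strand: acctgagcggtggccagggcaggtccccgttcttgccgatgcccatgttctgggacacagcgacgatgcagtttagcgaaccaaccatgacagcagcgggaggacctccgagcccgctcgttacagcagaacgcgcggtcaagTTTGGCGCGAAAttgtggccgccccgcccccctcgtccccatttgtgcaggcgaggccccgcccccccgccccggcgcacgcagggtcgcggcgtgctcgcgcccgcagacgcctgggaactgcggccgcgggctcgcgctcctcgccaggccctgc

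Promoter windows were listed for 41 of the 47 measured members, 61 windows in all. An E2F word lay in 8 of these 61 windows (13.1%), against 4.38% of the windows of all measured genes and 3.31% of the whole table of 35116. The 8 windows belong to 8 members, which did not move together on the LSD2/eGFP/Flag arrays: EXO1, FANCC, XRCC2 and XRCC6 rose, MSH3 and TOPBP1 fell, and CLSPN and MSH6 were not called. A CCAAT box lay in 45.9% of the members' windows, against 35.1% of those of measured genes and 34.6% of all windows. The MDC1 window holds it at positions -54 and -219 relative to the start, the CHEK2 window at -40, -70 and -199, and the ERCC2 window at -82, -118 and -211. CHR was in 9.84% of members' windows, against 11.8% of those of measured genes and 15.2% of all. The ETS word CCGGAAGT was in 9.84%, against 5.43% of those of measured genes and 4.14% of all. These are matches of letters, and binding was not measured.

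In the shRNA comparison, LSD2 shRNA minus scramble shRNA, changes of these genes were few and small. Of the 47 measured members 2 rose, BRCA1 and MRE11, and 5 fell, TP53BP1, XPA, BARD1, ERCC2 and ERCC3, at an adjusted p under 0.05 (limma, Benjamini-Hochberg over all genes), while 40 were not called. That is 14.9% of the members, beside 10.5% of all genes called. Rises were 4.26% of members beside 5.0% of all genes, and falls 10.6% beside 5.53%. The median log2 difference was 0.04 over the members and -0.01 over all genes. The arrays of the groups did not overlap for 24 members (51.1%), beside 28.3% of all genes. An unadjusted p was under 0.05 for 16 members (34.0%), beside 23.0% of all genes, and TP53BP1 was the 1 called member past 0.5 log2 units, beside 4.13% of all genes.

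Far more members moved on the LSD2/eGFP/Flag arrays, in both directions. Against the eGFP/Flag arrays 20 members rose, 16 fell and 11 were not called, so that 76.6% of members were called beside 57.0% of all genes. Rises were 42.6% beside 30.9%, and falls 34.0% beside 26.1%. With the dimmest 25% of genes left out, which removes only FANCF and CLSPN of the members, 35 of 45 members were called, beside 68.5% of the genes kept. The arrays did not overlap for 37 members (78.7%), beside 61.1% of all genes. Large changes were fewer than among all genes: 5 members (10.6%) were called at 1 log2 unit or more, MDC1, CHEK2, PARP1, ERCC1 and LIG4, beside 18.3%. Of 21 other probe sets of called members, 18 gave the same sign as the one used, and those of MSH3, TP53BP1 and XRCC5 gave opposite ones. The median difference was near 0 over the members (0.003) and over all genes (0.01). When every array was shifted to an equal median, the median of all genes moved to -0.12 and that of the members to -0.13, with 18 members higher and 19 lower. Over all genes the same shift gave 2920 rises and 4295 falls, against 3701 rises and 3123 falls in the deposited values.

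**Figure D1:**
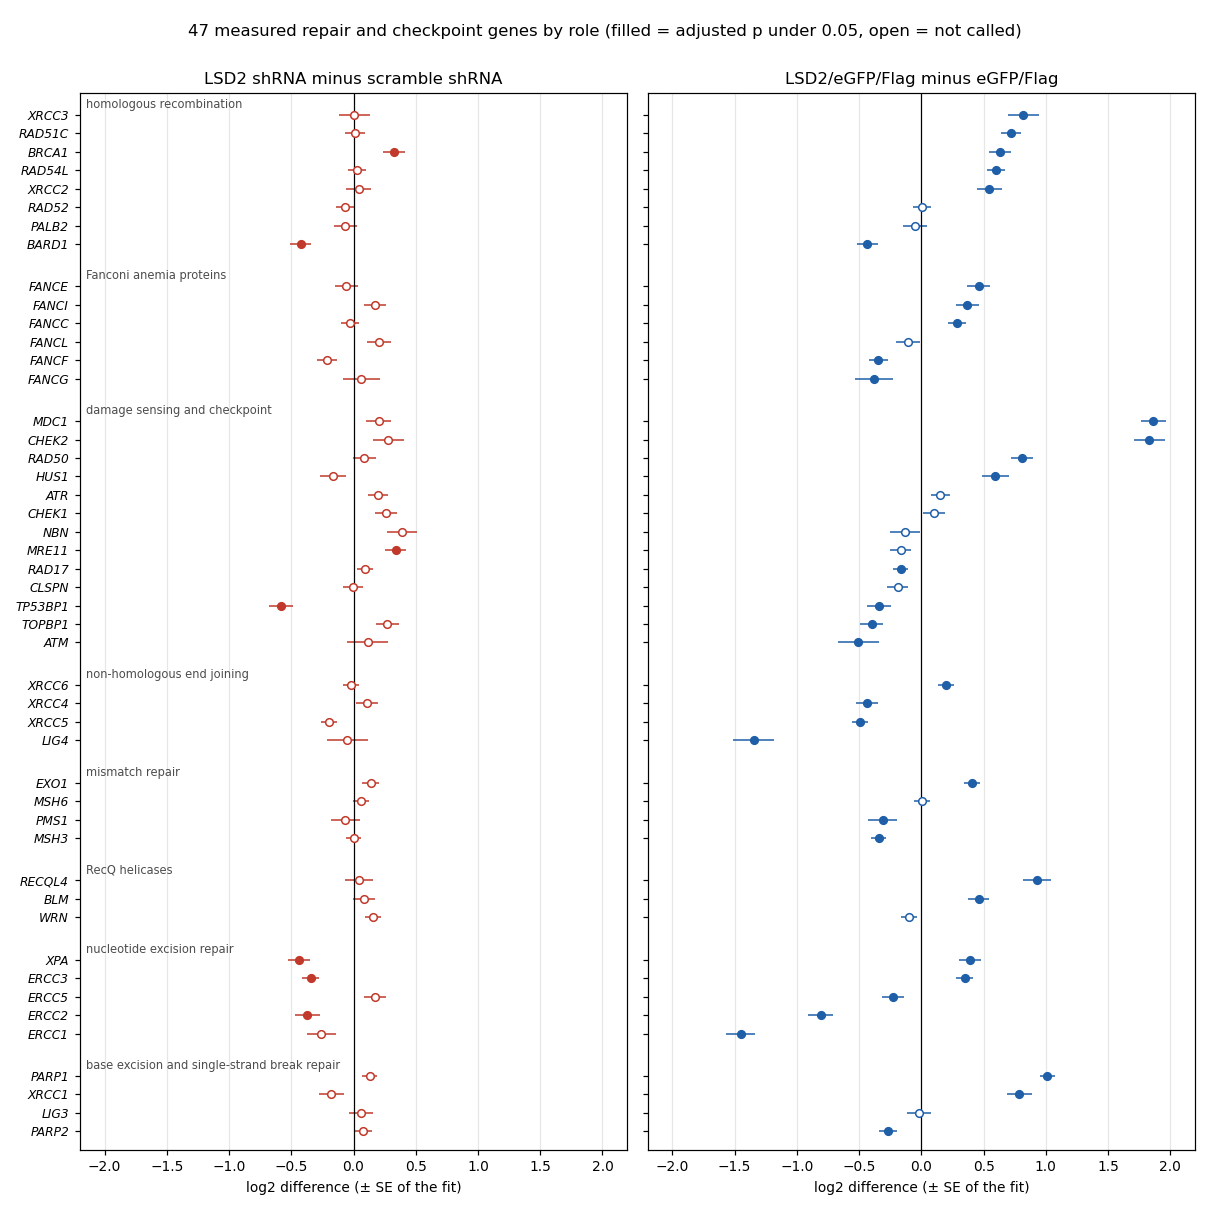
Log2 differences of the 47 measured members, grouped by role down the page, for LSD2 shRNA minus scramble shRNA at left and LSD2/eGFP/Flag minus eGFP/Flag at right. Points are differences of group means (n = 3 arrays a group), bars the SE of the fit, and filled points have an adjusted p under 0.05. At left 7 points are filled, between -0.58 and 0.34, and at right 36 are filled, between -1.45 and 1.86.

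Among the 8 measured homologous recombination genes, 1 rose, 1 fell and 6 were not called with the LSD2 shRNA, while 5 rose, 1 fell and 2 were not called on the LSD2/eGFP/Flag arrays. BRCA1, the ubiquitin ligase that directs broken ends to recombination, read 8.13, 8.07 and 8.26 on the LSD2 shRNA arrays, against 7.83, 7.79 and 7.87 on the scramble shRNA arrays. Every LSD2 shRNA array was higher than every scramble shRNA array, with a difference of 0.32 ± 0.09 log2 units (SE, limma adjusted p = 0.0349). On the vector arrays BRCA1 read 10.23, 10.47 and 10.32 with LSD2/eGFP/Flag, against 9.86, 9.71 and 9.57 with eGFP/Flag, again without overlap and higher by 0.63 ± 0.09 (limma adjusted p = 3.41e-05). BRCA1 was the only member called as a rise in both comparisons. Its other probe set was lower in signal and differed by 0.10 ± 0.08 with the LSD2 shRNA and by 0.38 ± 0.08 on the LSD2/eGFP/Flag arrays. With the shRNA its call was lost when any array but LSD2 shRNA replicate 2 was left out (limma adjusted p of 0.0649 to 0.128) and with the mean of both probe sets (0.21, adjusted p = 0.117).

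BARD1, the obligate partner of BRCA1 in the ligase, moved the other way. It read 8.37, 8.36 and 8.66 on the LSD2 shRNA arrays, against 8.94, 8.81 and 8.93 on the scramble shRNA arrays, a difference of -0.43 ± 0.08 (limma adjusted p = 0.00597). It also read 9.90, 10.01 and 10.01 on the LSD2/eGFP/Flag arrays, against 10.38, 10.42 and 10.43 on the eGFP/Flag arrays. The groups overlapped in neither comparison, and the second difference was -0.44 ± 0.08 (limma adjusted p = 0.000488). The partners of this complex thus had differences of opposite sign in each comparison.

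The recombination genes XRCC3, RAD51C and XRCC2 were higher on the LSD2/eGFP/Flag arrays. XRCC3 read 6.91, 7.15 and 7.12 there, against 6.37, 6.19 and 6.16 on the eGFP/Flag arrays, a difference of 0.82 ± 0.12 (limma adjusted p = 6.19e-05). RAD51C, its partner in a complex, read 11.09, 11.23 and 11.04, against 10.43, 10.47 and 10.29 on the eGFP/Flag arrays, higher by 0.72 ± 0.08 (limma adjusted p = 3.1e-06). Neither pair of groups overlapped. XRCC2 (0.55 ± 0.10) and the motor protein RAD54L (0.60 ± 0.07) rose as well, while PALB2, which links BRCA1 to BRCA2, and the annealing factor RAD52 were not called (-0.05 ± 0.09 and 0.01 ± 0.07). On the probe sets used, these 6 genes lay between -0.07 and 0.04 with the LSD2 shRNA, and none was called. A second RAD51C probe set gave -0.25 ± 0.09 there and 0.51 ± 0.09 on the LSD2/eGFP/Flag arrays. The dimmer RAD52 probe sets gave -0.09 ± 0.07 and -0.10 ± 0.06 with the shRNA. XRCC2 had exactly the same deposited value on 4 of the 6 shRNA arrays. Such ties occurred in 12 members (25.5%) on the shRNA arrays and in 0 on the vector arrays, beside 38.4% and 1.35% of all genes, and in none of the 7 members called with the shRNA. Their effect on the estimated spread was not tested.

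The Fanconi anemia genes did not move as a block. Their core complex adds ubiquitin to FANCI and its partner at stalled crosslinks. None of the 6 measured genes was called with the LSD2 shRNA (limma, 1 at an unadjusted p under 0.05), and their differences ran from -0.21 (FANCF) to 0.21 (FANCL, the ligase subunit). FANCE (0.46 ± 0.09), FANCI (0.37 ± 0.09) and FANCC (0.29 ± 0.07) rose on the LSD2/eGFP/Flag arrays. A second FANCI probe set gave -0.10 ± 0.08 with the LSD2 shRNA and 0.12 ± 0.08 on the LSD2/eGFP/Flag arrays. FANCG (-0.38 ± 0.15) and FANCF (-0.34 ± 0.08) fell there, and FANCL was not called (-0.11 ± 0.10). FANCG lost its call when either LSD2/eGFP/Flag replicate 1 or 2 or eGFP/Flag replicate 1 was left out (limma adjusted p of 0.16 to 0.208), and FANCC with equal medians (0.15, adjusted p = 0.153). FANCF, with CLSPN, was in the dimmest 25% of all genes.

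Damage sensing and checkpoint genes held the 2 largest rises among the members. MDC1, the mediator that binds phosphorylated histone H2AX at breaks, read 10.93, 11.18 and 11.10 on the LSD2/eGFP/Flag arrays, against 9.42, 9.02 and 9.19 on the eGFP/Flag arrays. The lowest of the first was well above the highest of the second, and the difference was 1.86 ± 0.10 (limma adjusted p = 2.19e-09). A second MDC1 probe set gave 1.89 ± 0.09. CHEK2, the effector kinase downstream of ATM, read 10.04, 9.85 and 10.19, against 8.42, 7.90 and 8.27 on the eGFP/Flag arrays, again far apart, with a difference of 1.83 ± 0.12 (limma adjusted p = 2.23e-08). Neither was called with the LSD2 shRNA, at 0.20 ± 0.10 for MDC1 and 0.28 ± 0.12 for CHEK2. Both effects differed from those of the shRNA, by 1.66 ± 0.14 for MDC1 (limma adjusted p = 4.29e-07) and by 1.55 ± 0.18 for CHEK2 (limma adjusted p = 6e-06).

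ATM, the kinase that answers to double-strand breaks, was lower. It read 8.29, 8.87 and 8.93 on the LSD2/eGFP/Flag arrays, against 9.44, 8.95 and 9.22 on the eGFP/Flag arrays, where the highest of the first and the lowest of the second lay side by side. The difference was -0.51 ± 0.17 (limma adjusted p = 0.0177), and it was not called without LSD2/eGFP/Flag replicate 1 (-0.30, adjusted p = 0.0892) or without eGFP/Flag replicate 1 (-0.39, adjusted p = 0.085). Its other 2 probe sets gave -0.12 ± 0.11 and -0.62 ± 0.14. ATR, the kinase for replication stress, and its effector CHEK1 were called in neither comparison. They differed by 0.20 ± 0.08 and 0.26 ± 0.09 with the LSD2 shRNA, and on the LSD2/eGFP/Flag arrays by 0.15 ± 0.08 and 0.10 ± 0.09.

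The MRE11, RAD50 and NBN proteins form the complex that first binds a break, and their genes did not share a pattern. MRE11, the nuclease, read 8.02, 7.76 and 7.98 on the LSD2 shRNA arrays, against 7.57, 7.62 and 7.55 on the scramble shRNA arrays, without overlap, a rise of 0.34 ± 0.08 (limma adjusted p = 0.0207). A second, dim MRE11 probe set gave -0.12 ± 0.08. The call of MRE11 was lost without LSD2 shRNA replicate 1 or 3 or scramble shRNA replicate 1 or 3 (limma adjusted p of 0.0638 to 0.0959) and with the mean of both probe sets (0.11, adjusted p = 0.389). NBN, the subunit that recruits ATM, read 10.004, 9.996 and 10.24 on the LSD2 shRNA arrays, against 9.75, 9.52 and 9.81 on the scramble shRNA arrays. These arrays did not overlap either, and the difference of 0.39 ± 0.12, the highest of all members with the shRNA, was not called (limma adjusted p = 0.0597). RAD50, the ATPase of the complex, was at 0.09 ± 0.09 there.

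On the vector arrays RAD50 was the one that rose. It read 9.04, 9.13 and 9.12 with LSD2/eGFP/Flag, against 8.28, 8.25 and 8.33 with eGFP/Flag, a difference of 0.81 ± 0.09 (limma adjusted p = 3.92e-06). The other RAD50 probe set gave 0.17 ± 0.15. MRE11 and NBN were at -0.16 ± 0.08 and -0.13 ± 0.12 in that comparison and were not called. On the brightest probe sets the effects in the comparisons differed for all 3 genes, by 0.72 ± 0.13 for RAD50, -0.50 ± 0.12 for MRE11 and -0.52 ± 0.17 for NBN (vector effect minus shRNA effect, limma adjusted p = 0.000359, 0.00288 and 0.0216). The dim MRE11 probe set went the other way, at -0.12 ± 0.08 with the LSD2 shRNA and 0.14 ± 0.08 on the LSD2/eGFP/Flag arrays. The other RAD50 probe set was at -0.04 ± 0.15 with the shRNA. The other NBN probe sets gave 0.25 ± 0.15, 0.27 ± 0.16 and 0.25 ± 0.20 with the shRNA. On the LSD2/eGFP/Flag arrays these gave -0.03 ± 0.15, 0.13 ± 0.16 and 0.06 ± 0.20.

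TP53BP1, which shields broken ends from resection and so favours end joining, had the largest fall with the LSD2 shRNA. It read 8.80, 8.94 and 8.81 on the LSD2 shRNA arrays, against 9.42, 9.60 and 9.28 on the scramble shRNA arrays. All LSD2 shRNA arrays were below 9 and all scramble shRNA arrays above it, and the difference was -0.58 ± 0.10 (limma adjusted p = 0.00196). A second probe set gave -0.43 ± 0.13. On the vector arrays the brightest probe set read 9.99, 10.08 and 10.03 with LSD2/eGFP/Flag, against 10.31, 10.26 and 10.55 with eGFP/Flag, a fall of 0.34 without overlap (limma adjusted p = 0.00785). There the second probe set went the other way (0.43 ± 0.13), and the mean of both gave 0.0425 (adjusted p = 0.763), so the direction of TP53BP1 in the vector comparison depends on the probe set.

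Of the remaining checkpoint genes, TOPBP1, the activator of ATR, read 10.94, 10.97 and 11.04 on the LSD2/eGFP/Flag arrays, against 11.61, 11.31 and 11.22 on the eGFP/Flag arrays, without overlap and lower at -0.40 ± 0.09 (limma adjusted p = 0.00192). HUS1, a subunit of the sliding clamp that marks damage, rose there by 0.59 ± 0.11, with 0.16 ± 0.08 and 0.10 ± 0.10 on its 2 dimmer probe sets, and RAD17, its loader, fell by 0.17, a call that was lost when any array but LSD2/eGFP/Flag replicate 1 was left out (limma adjusted p of 0.0514 to 0.126). The 2 dimmer RAD17 probe sets gave -0.41 ± 0.09 and -0.53 ± 0.09. CLSPN, the adaptor between ATR and CHEK1, was not called (-0.19 ± 0.08). On the probe sets used, these 4 lay between -0.16 and 0.27 with the LSD2 shRNA and none was called. The dimmer probe sets had the opposite sign there for RAD17 (-0.19 ± 0.09 and -0.27 ± 0.09) and for HUS1 (0.11 ± 0.08 and 0.06 ± 0.10). In all, 1 of the 13 sensing and checkpoint genes rose, 1 fell and 11 were not called with the shRNA. The LSD2/eGFP/Flag arrays gave 4 rises, 4 falls and 5 members not called, beside 57.0% of all genes called.

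**Figure D2:**
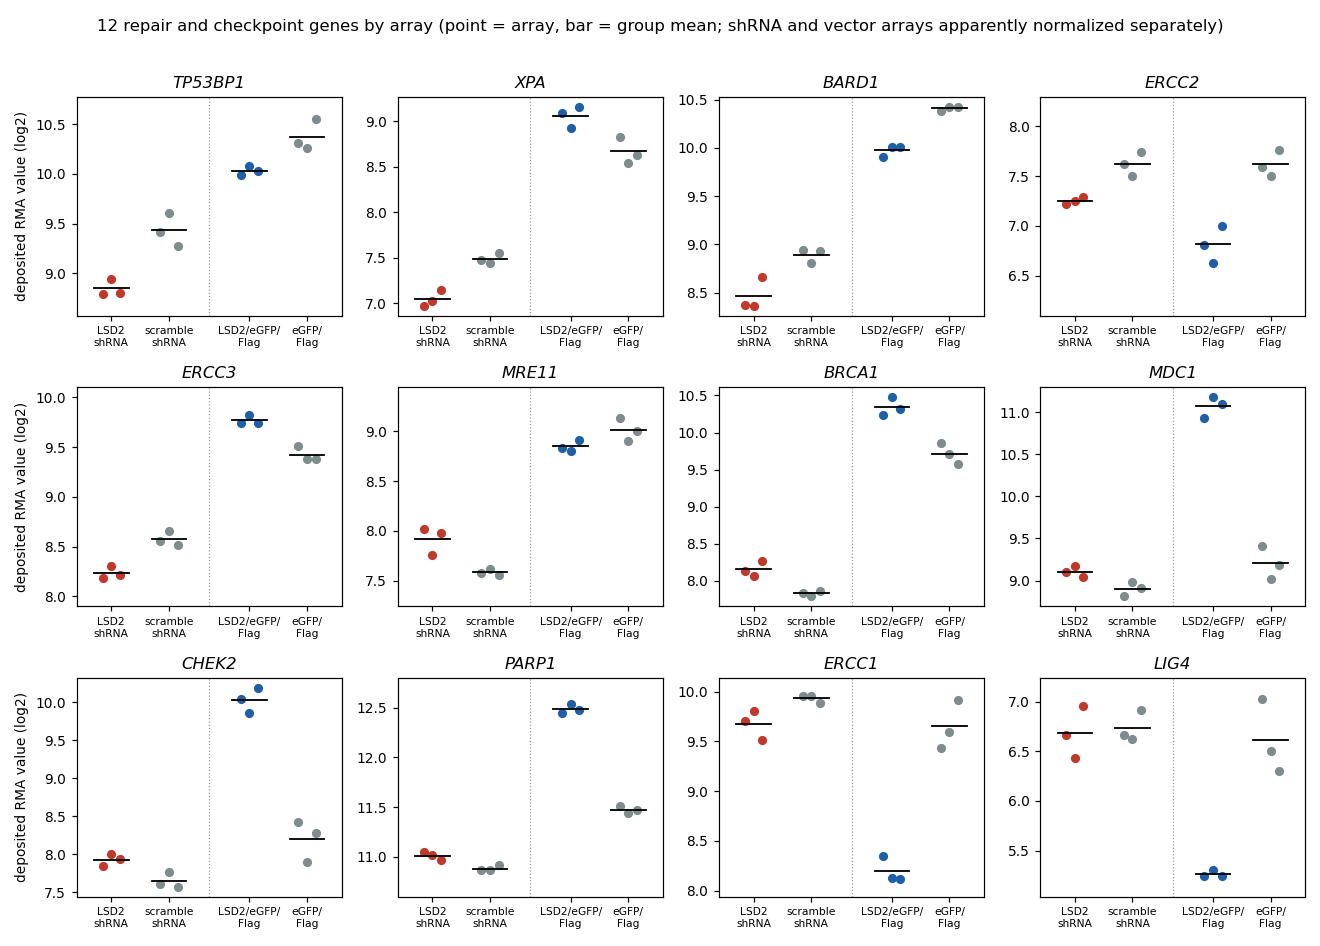
Deposited RMA log2 values of 12 members on every array, 1 gene a panel. Groups run from left to right as LSD2 shRNA, scramble shRNA, LSD2/eGFP/Flag and eGFP/Flag, points are arrays, bars are group means, and the dotted line parts arrays that appear to be normalized separately. MDC1 and CHEK2 show the widest gaps upward on the LSD2/eGFP/Flag arrays, ERCC1 and LIG4 the widest downward, and TP53BP1 the widest gap with the LSD2 shRNA.

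Of the 4 non-homologous end joining genes, none was called with the LSD2 shRNA (limma, 1 at an unadjusted p under 0.05). On the LSD2/eGFP/Flag arrays 3 fell and 1 rose, beside 57.0% of all genes called. LIG4, the ligase that seals the ends, read 5.25, 5.30 and 5.25 there, against 7.03, 6.50 and 6.31 on the eGFP/Flag arrays. The groups lay more than 1 log2 unit apart, and the difference was -1.35 ± 0.17 (limma adjusted p = 8.85e-06). XRCC4, which holds LIG4, read 8.01, 7.88 and 8.02, against 8.37, 8.41 and 8.44 on the eGFP/Flag arrays, lower at -0.43 ± 0.09 (limma adjusted p = 0.000796). All 4 XRCC4 probe sets gave a negative difference, between -0.45 and -0.34.

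The Ku genes were bright on every array and split. XRCC5, which encodes Ku80, read 12.45, 12.57 and 12.60 on the LSD2/eGFP/Flag arrays, against 13.08, 12.95 and 13.06 on the eGFP/Flag arrays, lower at -0.49 ± 0.07 without overlap (limma adjusted p = 2.18e-05). Its second probe set, also bright, gave 0.31 ± 0.08, and with the mean of both the call was lost (-0.09, adjusted p = 0.217). XRCC6, which encodes Ku70, was higher by 0.20 ± 0.06 (limma adjusted p = 0.0155), a call lost with equal medians (0.06, adjusted p = 0.492) and without LSD2/eGFP/Flag replicate 2 or eGFP/Flag replicate 1 (adjusted p of 0.0539 to 0.0644).

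Mismatch repair and RecQ helicase genes had no call with the LSD2 shRNA, with differences from -0.07 to 0.16 over the 7 measured (limma, 1 at an unadjusted p under 0.05). EXO1, the exonuclease that removes the mismatched strand, rose by 0.41 ± 0.07 on the LSD2/eGFP/Flag arrays. The mismatch sensor MSH3 (-0.34 ± 0.06) and PMS1 (-0.31 ± 0.12) fell, and MSH6, a sensor of single mismatches, was at 0.003 ± 0.07 and not called. The other 2 MSH6 probe sets gave -0.43 ± 0.08 and -0.12 ± 0.11. PMS1 lost its call without LSD2/eGFP/Flag replicate 2 or 3 or eGFP/Flag replicate 1 or 2 (limma adjusted p of 0.0662 to 0.112), and MSH3 with the mean of its probe sets (-0.16, adjusted p = 0.119). RECQL4, the helicase mutated in Rothmund-Thomson syndrome, read 9.39, 9.35 and 9.54 on the LSD2/eGFP/Flag arrays, against 8.74, 8.26 and 8.50 on the eGFP/Flag arrays. It rose by 0.93 ± 0.11 without overlap (limma adjusted p = 7.83e-06), and BLM, the helicase of Bloom syndrome, rose by 0.46 ± 0.09. WRN, the Werner syndrome helicase, was not called (-0.10 ± 0.06).

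Of the 5 measured nucleotide excision repair genes, 3 fell and none rose with the LSD2 shRNA, beside 5.53% of all genes that fell. With so few genes in each of 8 roles, nothing is read from this count. XPA, the scaffold that verifies the lesion, read 6.97, 7.02 and 7.14 on the LSD2 shRNA arrays, against 7.47, 7.44 and 7.55 on the scramble shRNA arrays, lower at -0.44 ± 0.09 (limma adjusted p = 0.00695). The helicase genes ERCC2 (XPD) and ERCC3 (XPB), whose products unwind DNA within the general transcription factor TFIIH, fell with it. ERCC2 read 7.22, 7.25 and 7.29 on the LSD2 shRNA arrays, against 7.62, 7.51 and 7.74 on the scramble shRNA arrays, at -0.37 ± 0.10 (limma adjusted p = 0.0302). ERCC3 read 8.18, 8.31 and 8.21 on the LSD2 shRNA arrays, against 8.56, 8.66 and 8.52 on the scramble shRNA arrays, at -0.34 ± 0.07 (limma adjusted p = 0.00695). No LSD2 shRNA array reached the lowest scramble shRNA array for any of these 3 genes. ERCC2 lost its call when any array but scramble shRNA replicate 2 was left out (limma adjusted p of 0.0634 to 0.109). ERCC1, the partner of the XPF nuclease, and ERCC5, the nuclease XPG, were not called (-0.26 ± 0.12 and 0.17 ± 0.09).

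These genes parted on the LSD2/eGFP/Flag arrays. ERCC1 had the largest fall of all members: it read 8.35, 8.13 and 8.12 there, against 9.44, 9.59 and 9.92 on the eGFP/Flag arrays, at -1.45 ± 0.12 (limma adjusted p = 1.35e-07). A second ERCC1 probe set gave -1.66 ± 0.16. ERCC2 read 6.81, 6.63 and 7.0001, against 7.59, 7.51 and 7.76 on the eGFP/Flag arrays, at -0.81 ± 0.10 (limma adjusted p = 9.42e-06), and ERCC5 fell by 0.23, a call lost without replicate 1 of either group (limma adjusted p of 0.149 and 0.151). Neither ERCC1 nor ERCC2 overlapped between the groups. XPA and ERCC3 rose instead. XPA read 9.09, 8.92 and 9.16 with LSD2/eGFP/Flag, against 8.83, 8.54 and 8.63 with eGFP/Flag (0.39 ± 0.09, limma adjusted p = 0.00187), and ERCC3 read 9.74, 9.82 and 9.74, against 9.51, 9.38 and 9.38 with eGFP/Flag (0.35 ± 0.07, limma adjusted p = 0.000658).

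Base excision and single-strand break repair genes were not called with the LSD2 shRNA (limma, 0 of 4 at an unadjusted p under 0.05). PARP1, the polymerase of poly(ADP-ribose) that flags strand breaks, read 12.44, 12.53 and 12.48 on the LSD2/eGFP/Flag arrays, against 11.51, 11.44 and 11.47 on the eGFP/Flag arrays. The arrays of each group lay within 0.1 log2 units of each other and 1.01 ± 0.06 apart between groups (limma adjusted p = 5.87e-09). XRCC1, the scaffold that PARP1 recruits, read 8.18, 8.26 and 8.28, against 7.57, 7.16 and 7.62 on the eGFP/Flag arrays, higher by 0.79 ± 0.10 without overlap (limma adjusted p = 1.25e-05). PARP2, the second break-sensing polymerase, fell by 0.27, and LIG3, the ligase that XRCC1 holds, was not called (-0.02 ± 0.10). With the LSD2 shRNA PARP1 was at 0.13 ± 0.06 and XRCC1 at -0.18 ± 0.10.

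Of the 47 members 6 were called in both comparisons, beside 8.02% of all genes. BRCA1 rose in both, and BARD1, TP53BP1 and ERCC2 fell in both. The second TP53BP1 probe set went the other way on the LSD2/eGFP/Flag arrays (0.43 ± 0.13). The shRNA calls of BRCA1 and ERCC2 were each lost in 5 of 6 fits without 1 array. ERCC3 and XPA fell with the LSD2 shRNA and rose on the LSD2/eGFP/Flag arrays, an opposite pattern that 4.97% of all genes showed. The vector effect exceeded the shRNA effect by 0.69 ± 0.10 for ERCC3 (limma adjusted p = 4.81e-05) and by 0.83 ± 0.13 for XPA (limma adjusted p = 8.71e-05). Over the members this difference between effects was called as higher for 17, as lower for 14 and not at all for 16. That is 66.0% of members, beside 50.4% of all genes (28.0% higher and 22.4% lower), and with equal medians the split was 12 higher and 17 lower, beside 2503 higher and 3791 lower over all genes (3347 and 2682 in the deposited values). For BARD1 the effects were nearly the same, with a difference of -0.01 ± 0.12 (limma adjusted p = 0.958).

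Members called with the LSD2 shRNA had the sign of their neighbours' median on the chromosome, as most called genes did, and several of these medians were small. For each member the 10 nearest measured genes on either side were taken (fewer at chromosome ends), a description chosen after values were seen. With the LSD2 shRNA all 7 called members had the sign of their neighbours' median, beside 84.5% of all 1260 called genes. Around TP53BP1 on chromosome 15, 8 of 20 neighbours fell and none rose (median -0.26), and around ERCC3 on chromosome 2, 8 of 20 fell and none rose (median -0.22). BARD1, also on chromosome 2, had 6 falls and no rise among its neighbours (median -0.14), and the fall was smaller around XPA on chromosome 9 (3 falls, median -0.08). None of the 20 neighbours of ERCC2 was called (median -0.13). Around MRE11 on chromosome 11, 1 of 20 neighbours rose and none fell (median 0.09), although 107 of 732 genes on that chromosome fell and 17 rose. Around BRCA1 on chromosome 17, 2 of 20 neighbours rose and none fell (median 0.05), although 115 of 700 genes on that chromosome fell and 12 rose.

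Across the 47 members, a member's difference and its neighbours' median had a Spearman correlation of 0.65 with the LSD2 shRNA, beside 0.35 over 11954 genes. The correlation was 0.23 over the members and 0.26 over all genes on the LSD2/eGFP/Flag arrays. These points share the same arrays, and genes close together share neighbours. Of the 36 members called there, 21 had the sign of their neighbours' median, beside 63.6% of all called genes. PARP1 on chromosome 1 had 12 rises and 4 falls among 20 neighbours (median 0.55), and CHEK2 on chromosome 22 had 11 and 2 (median 0.26). Over chromosome 22 as a whole 175 of 312 genes rose and 29 fell, and XRCC6 also lies there. MDC1 had 10 rises and 2 falls around it (median 0.27), far below its own 1.86. ERCC1 and ERCC2 lie close together on chromosome 19, with PPP1R13L and POLR1G between them. On the LSD2/eGFP/Flag arrays PPP1R13L, next to ERCC2, fell by 0.88, while POLR1G, next to ERCC1, rose by 0.45 ± 0.13, and the 20 genes around ERCC1 had 5 rises and 5 falls.

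**Figure D3:**
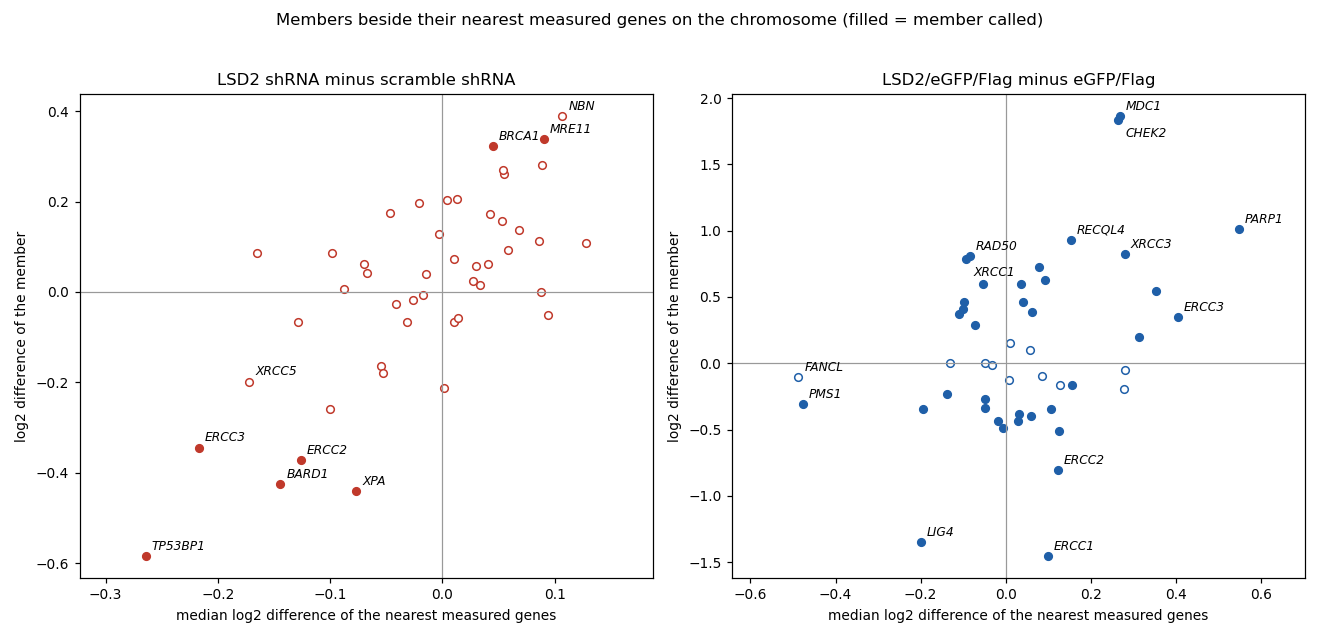
Log2 difference of each of the 47 members (vertical axis) against the median log2 difference of its nearest measured genes on the chromosome (horizontal axis), for LSD2 shRNA minus scramble shRNA at left and LSD2/eGFP/Flag minus eGFP/Flag at right. Each point is a member, filled where called. At left all 7 filled points lie in the quadrants of shared sign, and at right 21 of 36 do.

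Of 75 other repair genes measured, 5 rose and 6 fell with the LSD2 shRNA. SMC5, a cohesin-like subunit (0.55 ± 0.13), the recombination factor RAD51AP1 (0.52 ± 0.09), and PRKDC, the kinase that Ku recruits (0.39 ± 0.09), had the largest rises. DDB2, which senses ultraviolet damage (-1.17 ± 0.16), RPA1, the single-strand binding protein (-0.52 ± 0.08), and the topoisomerase TOP3A (-0.47 ± 0.10) had the largest falls. With the mean of all probe sets SMC5 (adjusted p = 0.234) and PRKDC (adjusted p = 0.638) lost their calls. SMC5 was also not called without LSD2 shRNA replicate 1 or 3 or scramble shRNA replicate 2 or 3 (adjusted p of 0.0532 to 0.0881) or with only the compared groups in the fit (adjusted p = 0.0515), nor PRKDC without LSD2 shRNA replicate 1 or 2 or scramble shRNA replicate 3 (adjusted p of 0.0603 to 0.0795). On the LSD2/eGFP/Flag arrays 31 rose and 20 fell, beside 30.9% and 26.1% of all genes. The base excision glycosylases SMUG1 (1.55 ± 0.08) and OGG1 (1.31 ± 0.17) and the lesion sensor XPC (1.52 ± 0.10) had the largest rises. The helicase RECQL (-1.26 ± 0.08), the end-joining polymerase POLM (-1.25 ± 0.13) and PARP3 (-1.24 ± 0.12) had the largest falls.

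Of 23 other checkpoint genes, 1 rose and 3 fell with the LSD2 shRNA. The phosphatase CDC25A, which drives entry into S phase, rose by 0.43 ± 0.10, and CDC25C, which drives entry into mitosis, fell by 0.54. The ubiquitin ligase TRIP12 fell by 0.43 and the kinase TLK1 fell by 0.24. CDC25A lost its call with the mean of all probe sets (adjusted p = 0.0694) and without LSD2 shRNA replicate 3 or scramble shRNA replicate 1 or 2 (0.0595 to 0.08). TLK1 lost it with equal medians (adjusted p = 0.164) and without any array but LSD2 shRNA replicate 3 (0.0707 to 0.178). The LSD2/eGFP/Flag arrays had 11 rises and 8 falls, beside 30.9% and 26.1% of all genes. RAD9A, the partner of HUS1 in the clamp (1.21 ± 0.08), CDC25A (1.12 ± 0.10) and the phosphatase PPM1D, which shuts the checkpoint off (1.10 ± 0.07), had the largest rises. TRIP12 (-1.46 ± 0.09), GADD45B (-1.08 ± 0.21) and RAD1, the last subunit of the clamp (-0.99 ± 0.08), had the largest falls, so that in the clamp RAD9A and HUS1 rose and RAD1 fell.

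Several repair genes are transcribed most in S phase, so lists of S phase and of G2 and mitosis genes were set beside the members. Of 41 S phase genes 6 rose and none fell with the LSD2 shRNA (median 0.14), and 25 rose and 5 fell on the LSD2/eGFP/Flag arrays (median 0.35). Of 38 G2 and mitosis genes 5 rose and 3 fell with the LSD2 shRNA (median -0.02). On the LSD2/eGFP/Flag arrays 6 of these rose and 29 fell (median -0.61), with a mean per array of 10.72 to 10.73, against 11.16 to 11.37 on the eGFP/Flag arrays. The members lay between these lists, with 20 rises and 16 falls. Whether the cell cycle bears on the members was not tested, and in bulk RNA a shift in the share of cells in a phase and a change within cells cannot be told apart.

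**Figure D4:**
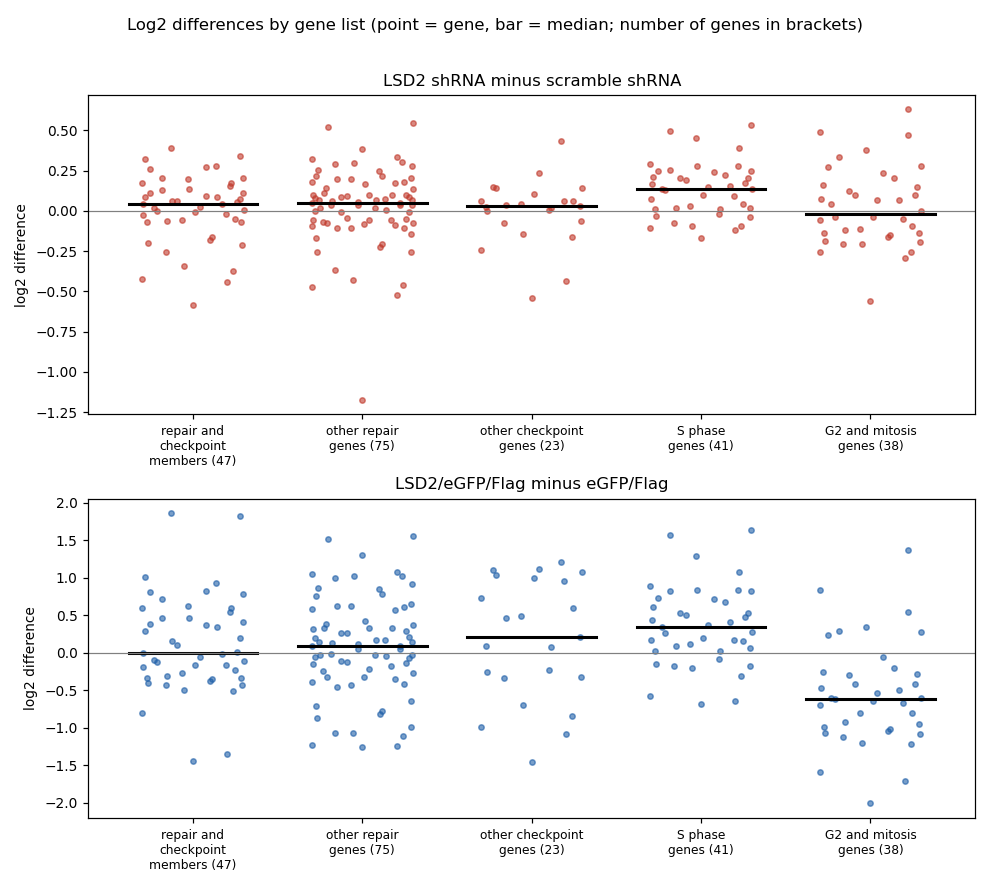
Log2 differences of the 47 members and of 75 other repair, 23 other checkpoint, 41 S phase and 38 G2 and mitosis genes, with LSD2 shRNA minus scramble shRNA above and LSD2/eGFP/Flag minus eGFP/Flag below. Points are genes and black bars medians. The medians of the members lie near 0 in both panels, and in the lower panel the S phase genes have a median of 0.35 and the G2 and mitosis genes one of -0.61.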

How the data were processed

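The deposited table holds log2 values of 22277 probe sets on 12 Affymetrix arrays. The submitters' processing notes give RMA as the method, which corrects background, normalizes quantiles and summarises the probes of a set. Its software and version are not stated in those notes. Per the labels' protocols, column-purified, DNase-treated RNA was turned into biotin-labelled cRNA.

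The platform annotation named 1 gene for 19064 probe sets, of which 19052 matched a RefSeq gene table (GRCh38.p14). Per gene the probe set with the highest mean over all arrays was kept, which gave 11963 genes. Of 79 probe sets naming a member, 22 members had several and 25 had 1.

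Differences were fitted with limma 3.58.1 in R 4.3.3 (lmFit on group means of all 12 arrays, eBayes; degrees of freedom 8 residual and 4.82 prior). All tests were two-sided, adjusted by Benjamini-Hochberg over all genes, and called at an adjusted p under 0.05. Errors are SEs of the fit unless stated. The procedure was run on simulated arrays with independent noise and 200 changed genes. These had far fewer changes than the vector comparison and no tied values, so that run does not cover those features of the data. Per the labels the 3 arrays of a group are biological replicates, and the p-values measure only the spread between arrays within groups. For each gene that spread is a single estimate shared by the 4 groups and drawn toward a value common to all genes. The p-values of each comparison thus also rest on the arrays of the other. The number of arrays limits the precision, and RMA values carry no detection calls.

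The members and lists were chosen with earlier results of these data known, and no list was tested as a set. Values by array are given for every member called with the shRNA, every member called in both comparisons and, in the vector comparison, the 8 largest rises and 8 largest falls without overlap. From other repair and other checkpoint genes the 3 largest called rises and falls are named. NBN, PPP1R13L and POLR1G were chosen after their values were seen, and the other members are named to account for each. Alternatives were a replicate block, the compared groups alone, cyclic loess, equal medians, no dim genes, averaged probe sets, stricter thresholds, array weights, a trend on intensity and each array left out. Leaving the LSD2/eGFP/Flag arrays out of the shRNA fit was added after seeing the data.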

Additional observations from a re-analysis of the deposited data

Results flagged for a closer look

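Among the 47 measured members, 2 were called in both comparisons with opposite directions, a share near that of all genes (4.97%), and the difference between the effects was called by limma as well. ERCC3 was -0.34 ± 0.07 with the LSD2 shRNA and 0.35 ± 0.07 on the LSD2/eGFP/Flag arrays, a difference of 0.69 ± 0.10 log2 units (vector effect minus shRNA effect). For XPA the effects were -0.44 ± 0.09 and 0.39 ± 0.09, a difference of 0.83 ± 0.13. In each comparison the 3 arrays of one group did not overlap the 3 of the other for either gene. All 14 measured MDA-MB-231 markers were lower on the arrays labelled LSD2/eGFP/Flag than on the eGFP/Flag arrays, and the part of this in the opposite directions was not tested.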

How the results depend on the processing

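With the LSD2 shRNA, the 7 calls of members (10.5% of all genes were called) numbered 14 with array weights (7 higher, with 19.6% of all genes called), 4 at an adjusted p under 0.01 (0 higher) and 1 with a minimum difference of 0.5 log2 units (0 higher, 1 lower), and 0 were higher with the mean of all probe sets. Leaving out 1 array, with 6.29% to 8.54% of all genes called, gave 4 to 6 calls, 0 to 2 higher and 4 to 5 lower, with 4 without LSD2 shRNA replicate 1 or 3 or scramble shRNA replicate 1 or 3. When 1 array was left out, BRCA1 kept its call only without LSD2 shRNA replicate 2, ERCC2 only without scramble shRNA replicate 2, and MRE11 only without replicate 2 of either group. TP53BP1, XPA, BARD1 and ERCC3 kept theirs in every alternative except the minimum difference, which TP53BP1 alone passed. Without the LSD2/eGFP/Flag arrays in the fit the shRNA comparison again gave 7 calls, beside 10.2% of all genes. On the LSD2/eGFP/Flag arrays the 36 calls (57.0% of all genes were called) numbered 16 with the minimum difference (12 higher, 4 lower), beside 4422 of 11963 genes. Without 1 array they numbered 30 to 35 (19 to 20 higher, 11 to 15 lower), beside 53.6% to 55.3% of all genes. With only the compared groups in the fit they numbered 32 (19 higher, 13 lower), beside 54.1% of all genes. With array weights they numbered 33 (20 higher, 13 lower), beside 56% of all genes. The mean of all probe sets reversed TP53BP1 in the vector comparison (0.0425), and 26 of the 36 members kept their call in every alternative at the same threshold. The difference between effects was called for 31 members, beside 50.4% of all genes. With the minimum difference 21 members were called (7 lower), beside 4632 of 11963 genes. At an adjusted p under 0.01 it was called for 19 members (6 lower). The share of all genes at that threshold is not given here, so nothing is read from this count. Leaving out 1 array gave 27 to 31 calls (15 to 19 higher, 10 to 13 lower), beside 47.5% to 50% of all genes. Medians over members moved between 0.01 and 0.07 with the shRNA and between -0.03 and 0.05 in the vector comparison when 1 array was left out. Same-numbered replicates deviated together at r of 0.02, 0.51 and 0.45 in the shRNA comparison and -0.14, 0.17 and 0.18 in the vector comparison, so the numbers were not taken to pair arrays. In the shRNA comparison each array correlated best with its own number, a hint from the data and not the design. With the replicate block 8 members were called with the shRNA (median 0.04), beside 13.7% of all genes. In the vector comparison 34 were called (median 0.003), beside 58.2% of all genes, and RAD17 (limma adjusted p = 0.057) and ERCC5 (0.0503) lost their calls. For the difference between effects 30 were called, beside 52.3% of all genes. The causes of these changes were not tested.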
